A study of Homo sapiens with 8 samples.

Results

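SR proteins and heterogeneous nuclear ribonucleoproteins (hnRNPs) are the main families of sequence-specific regulators of pre-mRNA splicing. The 37 genes described here were chosen by family name, 14 of the SR family (SRSF1 to SRSF12, TRA2A and TRA2B) and 23 of the hnRNP family (with SYNCRIP, PTBP1 and PTBP2), and each matched 1 of the 60651 rows of the deposited gene table. The values were ribosome footprint levels in IMR32, a human neuroblastoma cell line with amplified MYCN, listed as wild type in the labels. Cells of 4 libraries had received CR31B, a relative of silvestrol that inhibits the RNA helicase eIF4A, and cells of the other 4 had received only the solvent DMSO. Both groups were kept for 6 h and then given cycloheximide, which arrests translating ribosomes, before lysis. The labels describe the 4 libraries of a group as biological replicates of 1 line, and the dose of CR31B is not given in the sources used here.

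SR proteins carry RNA recognition motifs and a tail rich in arginine and serine, and as a rule they bind exonic enhancers and recruit the spliceosome. hnRNPs coat nascent transcripts, and many of them repress exons or compete with SR proteins for nearby sites. Many genes of both families hold "poison" exons that route part of their transcripts to nonsense-mediated decay, so the sum over transcripts of a gene does not show how much of it encodes the full protein. Rocaglates such as CR31B are known to clamp eIF4A onto stretches of A and G in mRNA leaders.

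Levels are in TPM, which divides footprints by transcript length and scales every library to the same sum. A change in the total of footprints per cell is thus not seen, and every rise or fall below is relative to the other genes. A footprint level combines the amount of an mRNA with the ribosomes on it, so less mRNA and fewer ribosomes per mRNA cannot be told apart, nor can fewer cells and less RNA per cell. Adrenergic neuroblastoma markers summed to 1201 to 1430 TPM in DMSO and 1277 to 1845 TPM in CR31B, although TH, the first enzyme of catecholamine synthesis, was at only 0.35 to 1.19 TPM. Mesenchymal markers summed to 114 to 171 and 127 to 159 TPM. The Schwann cell gene SOX10, the mesenchymal gene PRRX1 and the T cell gene CD3E were listed at 0 in all 8 libraries. Relative depth, read from the TPM that 1 read is worth in short genes, ran from 61.4% to 100% of the deepest library in DMSO and from 50.4% to 70.3% in CR31B. Protein-coding genes took 61.3% of TPM in CR31B replicate 1 and 51.8% to 58.4% in the other libraries. The part of depth and of this coding share in the results was not tested, but rescaling to a common coding sum is given where it changes a call.

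Under CR31B, footprints of 3 hnRNP genes fell and no SR gene passed the test. HNRNPD, which binds AU-rich mRNA elements and regulates mRNA decay, went to 48.0% of its DMSO level. HNRNPC, which binds uridine tracts and blocks cryptic exons, went to 60.6%. HNRNPAB, a relative of HNRNPD, went to 70.0%. A gene counted as changed when its limma p, adjusted by Benjamini-Hochberg over all 11778 genes tested, was under 0.05. That held for 7.46% of all tested genes, 3.45% higher and 4.02% lower, and for 3 of the 37 members, or 8.11%. The share over all members was thus close to that over all genes. All 3 calls were hnRNP genes that fell, and that of HNRNPAB held in only 6 of 15 alternatives. Whether 0 calls among 14 SR genes differ from 3 among 23 hnRNP genes was not tested. All 37 members passed the filter of a mean of at least 1 TPM.

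**Figure D1:**
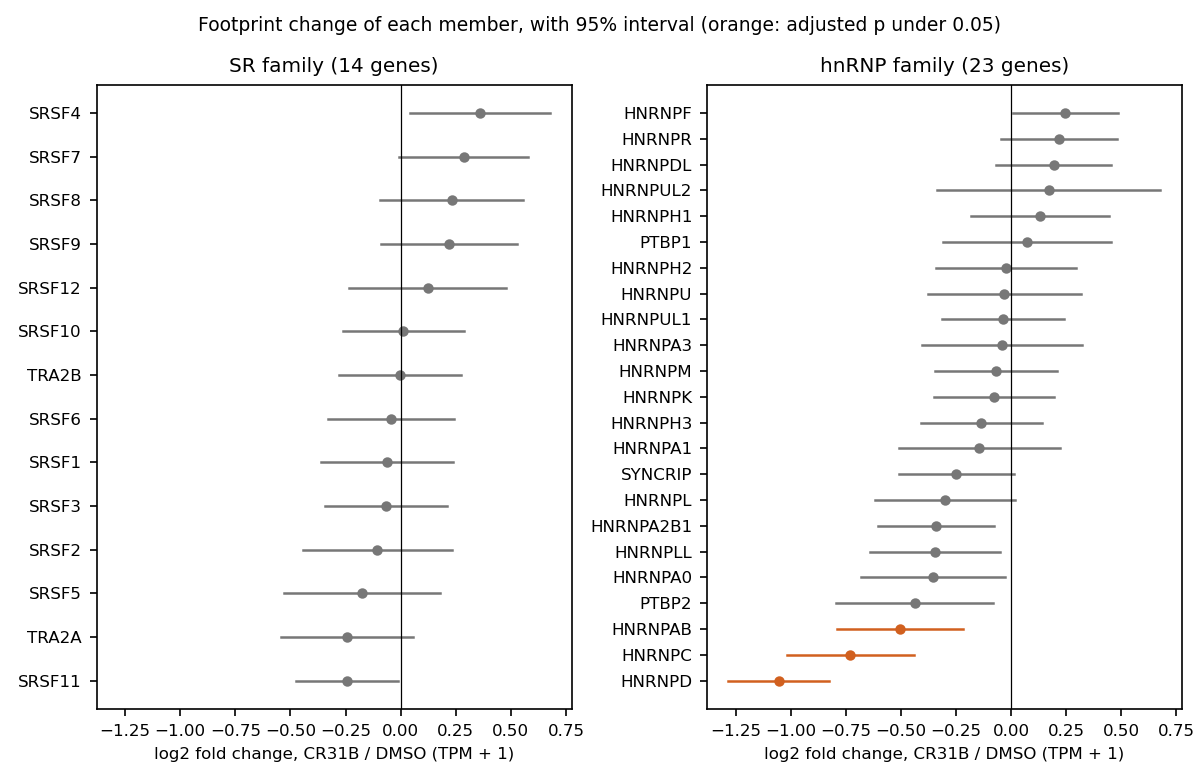
Log2 fold change (CR31B over DMSO, on log2(TPM + 1)) of each of the 14 SR and 23 hnRNP genes with the 95% confidence interval of the limma fit over 4 libraries a group. HNRNPD, HNRNPC and HNRNPAB, in orange, had adjusted p under 0.05, and all other members are grey.

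HNRNPD (ENSG00000138668.19 in the table) stood at 519, 481, 504 and 562 TPM in DMSO replicates 1 to 4. In CR31B replicates 1 to 4 it stood at 263, 249.96, 238 and 242 TPM. Every CR31B library was therefore far below every DMSO library, and the spread within CR31B was small (248 ± 11.1 against 517 ± 33.8 TPM, SD, n = 4 each). The log2 fold change was -1.05 (0.10 SE, interval at 95% from -1.28 to -0.82, adjusted p by limma 0.000611). It passed in all 15 alternatives tried, with log2 fold changes from -1.09 to -1.01. Among the 37 members its mean level went from rank 9 in DMSO to rank 16 in CR31B.

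HNRNPC was one of the most abundant members, at 1134, 1031, 1026 and 1151 TPM in DMSO replicates 1 to 4. Its CR31B replicates held 750.06, 714, 561 and 606 TPM, all below the lowest DMSO value. The log2 fold change was -0.73 (0.13 SE, interval at 95% from -1.02 to -0.44, adjusted p by limma 0.00911), and the call held in all 15 alternatives. HNRNPC has near-identical processed pseudogenes, of which HNRNPCP2 took most reads and fell too, at 86.3 TPM in DMSO and 48.6 TPM in CR31B on average (adjusted p by limma 0.0211, held in 10 of 15 alternatives). With all 9 pseudogene rows, which held 7.80% of the level of HNRNPC, added to the gene, the log2 fold change was -0.74, so the fall of HNRNPC was not matched by more reads on the copies.

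HNRNPAB stood at 106, 92.1, 109 and 129 TPM in DMSO replicates 1 to 4 and at 66.8, 76.8, 75.5 and 85.99 TPM in CR31B. The groups did not overlap, but they came closer than for the other genes that fell. The log2 fold change was -0.50 (0.13 SE, interval at 95% from -0.79 to -0.22, adjusted p by limma 0.0404). This call was not stable: it held in 6 of 15 alternatives and was lost without a filter on low genes (adjusted p of 0.0955), after rescaling over protein-coding genes (0.0719) and on leaving out any 1 library but DMSO replicate 2 (0.0552 to 0.122). Those 6 include adding its pseudogene row, which held 0.026% of its level and so all but repeats the main fit.

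**Figure D2:**
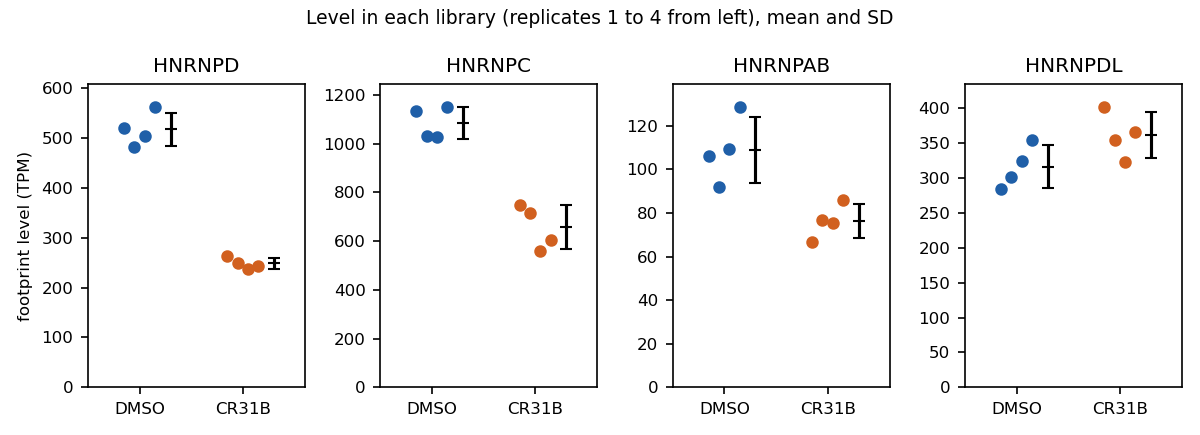
Footprint level (TPM, axes from 0) of HNRNPD, HNRNPC, HNRNPAB and their relative HNRNPDL in each of the 4 DMSO (blue) and 4 CR31B (orange) libraries, with the mean and SD in black. The groups are apart for the first 3 genes and overlap for HNRNPDL.

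Few other annotated genes overlap those that fell. Exons of HNRNPD overlap an antisense gene at 0.0175 TPM in each group, and those of HNRNPAB overlap PHYKPL on the opposite strand, which held 0.855 TPM in DMSO and 1.14 TPM in CR31B. No other annotated gene overlaps HNRNPC exons.

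Because rocaglates act through runs of A and G, the longest such run in the annotated 5′ leader of each member was read from GENCODE release 29 transcripts (build GRCh38). Sequences are shown for the 3 genes that fell and for their relative HNRNPDL, which did not pass. Each is the sense strand, 5′ to 3′, with the run in capitals and up to 3 flanking bases on each side in lower case.
HNRNPD: agcGAGGAGGAGGcga
HNRNPC: tgtGAAGAGAcga
HNRNPAB: gccAAGGAGGAGGAGAcac
HNRNPDL: ggcAAGAGGGActg

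These stretches lie in the 5′ leaders, within 1 exon each. HNRNPD's is at chr4:82373939-82373954 on the minus strand, in a leader of 278 bases. HNRNPC's is at chr14:21269408-21269420 (minus), HNRNPAB's at chr5:178204595-178204613 (plus) and HNRNPDL's at chr4:82429826-82429839 (minus). The run of HNRNPD was 10 bases long and began 6 bases from the annotated transcript start, and a run at least that long was in the leaders of 32.7% of 10209 tested coding genes with a leader. HNRNPAB had 13 bases (13.6% of genes had as many), HNRNPC only 7 (65.6%) and HNRNPDL 8 (53.2%). Runs of 12 or more were in 1 of 14 SR leaders, 6 of 23 hnRNP leaders (1 of the 3 that fell and 5 of the other 20) and 17.97% of all tested coding genes. Among all tested coding genes the share was 35.3% of those that fell and 28.2% of those that rose. Leaders of the genes that fell and rose had medians of 287 and 251 bases, against 188 for all tested coding genes. Their median content of A and G was 52.6% and 50.7%, against 51.0%. The part of leader length in the shares with long runs was not tested. The leader was that of 1 annotated transcript per gene, which may not be the one IMR32 cells use.

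HNRNPD, HNRNPAB and HNRNPDL are relatives, and HNRNPDL did not share the lower values. It stood at 283, 300.5, 324 and 354 TPM in DMSO and at 401, 354, 322 and 366 TPM in CR31B, with a log2 fold change of 0.19 (0.12 SE, adjusted p by limma 0.361). The difference between relatives was tested on the log2 ratio within each library, which does not depend on how a library is scaled apart from the added 1 TPM. The ratio of HNRNPD to HNRNPDL was 0.71 ± 0.11 in DMSO and -0.53 ± 0.080 in CR31B (SD, n = 4 each). The gene with the higher TPM thus changed from HNRNPD to HNRNPDL in 4 of 4 replicate numbers. Since TPM divides by transcript length, which of the pair held more footprints is not shown. The ratio of HNRNPAB to HNRNPDL went from -1.53 ± 0.13 to -2.23 ± 0.23. For both ratios the groups were fully apart (exact permutation p of 0.0286, two-sided, the smallest that 4 against 4 libraries allow). HNRNPD and HNRNPAB were already apart on their own and both were set against HNRNPDL, so these p-values add no separate support.

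This was done for 15 pairs of related members, chosen by family resemblance after the levels had been seen, with HNRNPDL and SRSF6 in 2 pairs each. The groups were apart in 6 pairs, each with an exact permutation p of 0.0286 and 0.0714 after Benjamini-Hochberg adjustment over the 15 pairs. How often ratios of other gene pairs are apart was not examined, so 6 of 15 cannot be called many or few. At least 9 pairs would have had to be apart for any to pass 0.05 once adjusted, so a miss says nothing about the size of a shift. The test did not use replicate numbers, since sign flips within 4 numbers cannot go below an exact p of 0.125. SRSF1 to SRSF9, whose groups overlapped, was also lower in CR31B in 4 of 4 numbers, by 0.28 on average. PTBP1, a repressor of neuronal exons, against its neuronal relative PTBP2 was 1 of the 6 pairs that were apart. The PTBP1 to PTBP2 log2 ratio was 3.83, 3.65, 3.68 and 3.83 in DMSO replicates 1 to 4 and 4.25, 4.09, 4.07 and 4.61 in CR31B, a difference of 0.51. PTBP1 itself stood at 490, 321, 396 and 470 TPM in DMSO and 557, 374, 391 and 438 TPM in CR31B, which overlap widely (log2 fold change 0.071, 0.17 SE, adjusted p by limma 0.853). PTBP2 stood at 33.5, 24.65, 29.95 and 32.1 TPM in DMSO and 28.3, 20.99, 22.3 and 16.97 TPM in CR31B. It was lower in CR31B in 4 of 4 replicate numbers, with a log2 fold change of -0.44 (0.16 SE, interval at 95% from -0.79 to -0.082) that did not pass (limma adjusted p of 0.133).

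The other pairs without overlap were SRSF3 to SRSF7, SRSF4 to SRSF6 and HNRNPR to SYNCRIP. HNRNPR and SYNCRIP are close relatives that bind mRNA in the cytoplasm as well as the nucleus. Their log2 ratio went from -0.38 ± 0.13 in DMSO to 0.088 ± 0.15 in CR31B. SRSF3 and SRSF7 are the SR proteins best known as adaptors for mRNA export, and their log2 ratio went from 1.05 ± 0.080 to 0.70 ± 0.045. For SRSF4 to SRSF6 it went from -1.998 ± 0.14 to -1.60 ± 0.12 (SD, n = 4 each). No member of these 3 pairs passed the limma test on its own.

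**Figure D3:**
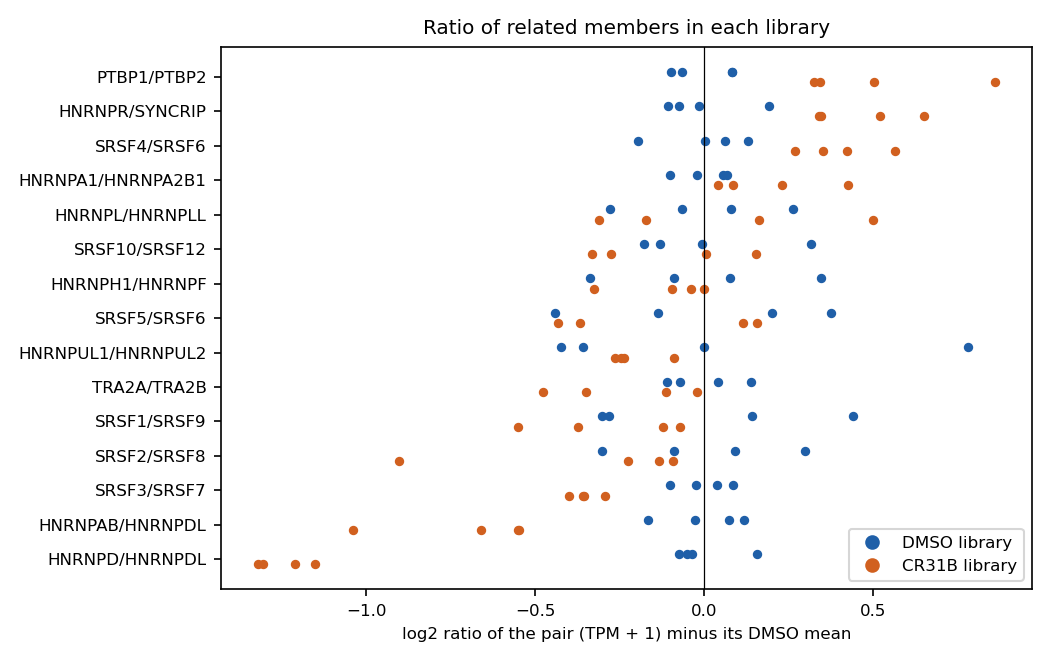
Log2 ratio (TPM + 1) of 15 pairs of related members in each DMSO (blue) and CR31B (orange) library, minus the DMSO mean of the pair. The mean difference was -1.25 for HNRNPD to HNRNPDL and 0.51 for PTBP1 to PTBP2, and the groups do not overlap in 6 pairs.

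Within the SR family the values spread around 0 in both directions. Of the 14 genes, 6 lay above 0 and 8 below on the log2 scale, from -0.24 to 0.36, the median being -0.023, against 0.029 for all tested genes. None passed with limma, and 2 of 14 (14.3%) had an unadjusted p under 0.05, against 23.4% of all tested genes (2752 of 11778). These were SRSF4, at 34.9, 26.3, 25.6 and 36.9 TPM in DMSO and 43.7, 35.8, 37.4 and 41.5 TPM in CR31B (log2 fold change 0.36, 0.14 SE, adjusted p by limma 0.162), and SRSF11, an atypical SR protein. SRSF11 was the SR gene whose groups did not overlap, at 145 to 171 TPM in DMSO and 123 to 144 TPM in CR31B (log2 fold change -0.24, 0.10 SE, adjusted p by limma 0.193). Groups without overlap were found for 6 of the 37 members and for 16.2% of all tested genes.

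SRSF3, the most abundant SR gene, varied more under CR31B than under DMSO. It stood at 764, 760.2, 750.3 and 769 TPM in DMSO and at 869, 756, 638 and 665 TPM in CR31B, on either side of the DMSO values (log2 fold change -0.066, 0.13 SE, adjusted p by limma 0.803). SRSF7 was higher in CR31B in 4 of 4 replicate numbers, at 346, 356, 366 and 396 TPM in DMSO and 535, 479.9, 376 and 411 TPM in CR31B. Its log2 fold change was 0.29 (0.13 SE, interval at 95% from -0.0068 to 0.58), which did not pass (limma adjusted p of 0.224). TRA2B, which binds purine-rich exonic enhancers, stood at 397, 365, 341 and 400.2 TPM in DMSO and 447, 348, 334 and 378 TPM in CR31B, and its groups overlapped fully (log2 fold change -0.0022, 0.12 SE, adjusted p by limma 0.992). Its relative TRA2A had a log2 fold change of -0.24 (0.14 SE, adjusted p by limma 0.316).

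SRSF1, the founding member of the family, stood at 317, 242, 263 and 317 TPM in DMSO and at 312, 270.3, 233 and 274 TPM in CR31B. No difference was detectable (log2 fold change -0.061, 0.14 SE, interval at 95% from -0.36 to 0.24, adjusted p by limma 0.835). The estimates for SRSF2, SRSF5, SRSF6, SRSF9 and SRSF10 ran from -0.18 to 0.22, with limma adjusted p from 0.384 to 0.967. SRSF8 and SRSF12 were the least abundant members, at 1.62 to 2.86 and 1.71 to 2.79 TPM, where the added 1 TPM shrinks a fold change. SRSF12 drew on about 71 to 151 reads in each library and SRSF8 on 249 to 434, estimated from the median annotated transcript length.

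Among hnRNPs, 17 of 23 log2 fold changes were below 0, with a median of -0.077 and a highest value of 0.25. An unadjusted p under 0.05 was found for 8 of 23 (34.8%), against 23.4% of all tested genes. Beside the 3 genes that fell these were 5: HNRNPF was higher, and HNRNPA2B1, HNRNPA0, HNRNPLL and PTBP2 were lower. HNRNPA1 and HNRNPA2B1 recognise related exonic silencers. HNRNPA1 was the most abundant member in both groups, at 2972, 2492, 2739 and 3109.5 TPM in DMSO and 3294, 2435, 2071 and 2553 TPM in CR31B, with broad overlap (log2 fold change -0.14, 0.17 SE, adjusted p by limma 0.656). HNRNPA2B1 went from 754 to 909.7 TPM in DMSO to 581 to 706 TPM in CR31B without overlap, with a log2 fold change of -0.34 (0.12 SE, adjusted p by limma 0.116). HNRNPA0 and HNRNPLL had log2 fold changes of -0.35 each (limma adjusted p of 0.177 and 0.146).

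The F and H proteins bind tracts of guanines. HNRNPH1 was the second most abundant member, at 1064, 1409, 1387 and 1189.8 TPM in DMSO and 1364, 1565, 1375 and 1212 TPM in CR31B, so the groups overlapped (log2 fold change 0.13, 0.14 SE, adjusted p by limma 0.630). HNRNPF stood at 36.5 to 45.3 TPM in DMSO and 47.6 to 52.9 TPM in CR31B without overlap, and its log2 fold change of 0.25 (SE 0.11) did not pass (limma adjusted p of 0.201). HNRNPH2 and HNRNPH3 had estimates of -0.023 and -0.13. HNRNPH2, at a mean of 18.6 TPM in DMSO and 18.4 TPM in CR31B, shares exons on the same strand with the readthrough gene RPL36A-HNRNPH2, at 5.78 and 1.33 TPM, so its value is uncertain. HNRNPK, a binder of cytosine-rich RNA, HNRNPM, HNRNPU and HNRNPUL1 had estimates from -0.077 to -0.031 with limma adjusted p from 0.760 to 0.931. HNRNPL, which binds CA repeats, and SYNCRIP were lower in CR31B in 4 of 4 replicate numbers, with log2 fold changes of -0.30 and -0.25 (limma adjusted p of 0.239 and 0.242). HNRNPL shares exons on the same strand with another annotated coding gene at 51.4 TPM in DMSO and 35.5 TPM in CR31B, so its value is uncertain.

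Pseudogene rows held reads beside several hnRNP genes. HNRNPA3 stood at 84.1 to 133 TPM, while its 16 pseudogene rows together held 238 TPM in DMSO and 200.2 TPM in CR31B, most of it on HNRNPA3P6. Its log2 fold change was -0.043 alone and -0.19 with the pseudogene rows added (limma adjusted p of 0.910 and 0.416). Exons of HNRNPA3 also overlap the microRNA gene MIR4444-1 on the same strand, at 7.86 TPM in DMSO and 22.2 TPM in CR31B. The value of HNRNPA3 is thus uncertain. The 74 pseudogene rows of HNRNPA1 held 4.57% of the gene's level, and the sum had a log2 fold change of -0.16. HNRNPUL2, at 2.29 to 5.84 TPM, was below its readthrough gene HNRNPUL2-BSCL2, at 13.6 TPM in DMSO and 12.5 TPM in CR31B.

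Summed over its 14 genes, the SR family took 2941, 2854, 2947 and 3123 TPM in DMSO replicates 1 to 4 and 3403, 3104, 2653 and 2839 TPM in CR31B. The means were alike (2967 ± 113 and 3000.0 ± 326 TPM, SD, n = 4 each), and the difference of 33.5 TPM changed sign when 1 library was left out, from -101 without CR31B replicate 1 to 149 without CR31B replicate 3. The 23 hnRNP genes took 10385, 9512, 10282 and 11269.8 TPM in DMSO and 10544, 9125, 8286 and 8841 TPM in CR31B. Their mean was lower by 1163 TPM with overlapping groups (10362 ± 719 and 9199 ± 962 TPM), and was lower in CR31B in 3 of 4 replicate numbers. HNRNPC and HNRNPD alone, picked after their values were seen, made up 59.8% of that difference. The other 20 hnRNP genes, without those that fell, summed to 8652 ± 621 TPM in DMSO and 8217 ± 879 TPM in CR31B. No test was made on these sums, since the members were chosen with results of these data known.

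**Figure D4:**
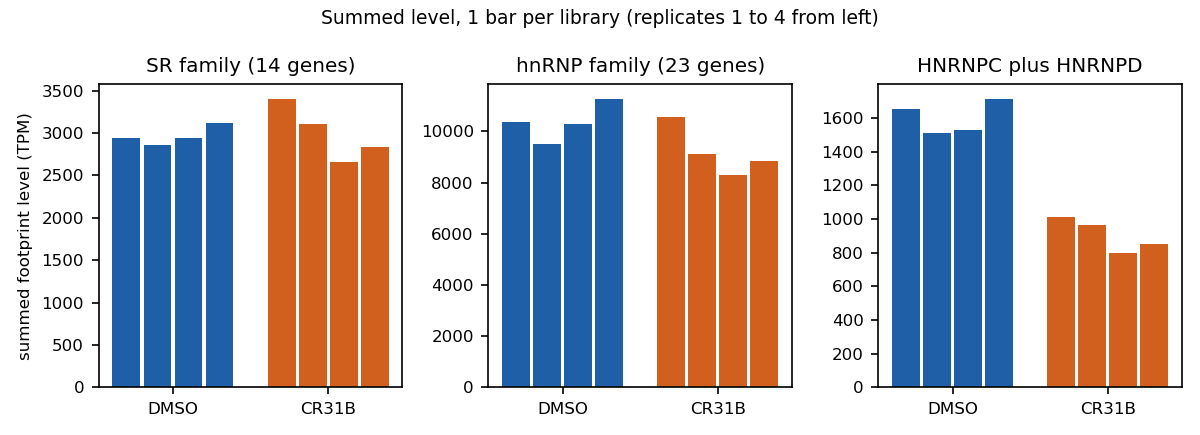
Summed footprint level (TPM, axes from 0) of the SR family, the hnRNP family and HNRNPC plus HNRNPD, with 1 bar for each of the 4 DMSO (blue) and 4 CR31B (orange) libraries. HNRNPC plus HNRNPD held 1512 to 1712 TPM in DMSO and 799 to 1013 TPM in CR31B, while both family sums overlap between groups.

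The genes that work with the members were taken from 8 lists written from general knowledge of splicing. Beside the calls in these lists, 7.46% of all tested genes passed with limma, 3.45% higher and 4.02% lower. Of the kinases that phosphorylate SR tails, SRPK2 rose from 17.2, 19.3, 17.4 and 18.2 TPM in DMSO to 28.4, 27.02, 26.3 and 24.9 TPM in CR31B (log2 fold change 0.54, 0.10 SE, adjusted p by limma 0.0122), and it was the only call among 9 tested. Among 22 SR-related genes 2 (9.09%) were called higher and none lower, a share close to that over all tested genes. Estimates of 8 of the 22 lay below 0. The 2 that rose were LUC7L2, a partner of the U1 particle, by 1.002 (0.23 SE, adjusted p by limma 0.0278), and BCLAF1, by 0.70 (0.14 SE, adjusted p by limma 0.0158). None of the 3 import receptors and none of the 3 U1 proteins passed with limma, and at an unadjusted p under 0.05, reached by 23.4% of all tested genes, there were 2 and 1.

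The Sm core is the ring of proteins on spliceosomal small nuclear RNAs. Of its 8 genes, 4 were called lower and none higher, and the median log2 fold change was -0.27. Estimates of 3 genes lay above 0, the highest at 0.68, and 1 of these had an unadjusted limma p under 0.05. Of all tested genes 4.02% were called lower. The 4 Sm core genes called lower were SNRPB at -0.63, SNRPG at -0.54, SNRPN at -0.49 and SNRPD2 at -0.48 (limma adjusted p of 0.0341, 0.0469, 0.0248 and 0.0342). SNRPD2 stood at 1066 to 1247 TPM in DMSO and 766 to 899 TPM in CR31B. SNRPB and SNRPN encode near-identical proteins, so how their reads were divided is uncertain. SF3A3 fell by 0.47 on the log2 scale among 15 genes of branch point recognition (limma adjusted p of 0.0338). It was the only call of that list, or 6.67% against 7.46% of all tested genes. The list's median was 0.012, with 8 of 15 estimates above 0.

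Of 33 tested neural and other splicing regulators, MBNL1 rose by 0.77 and QKI fell by 0.42 on the log2 scale (limma adjusted p of 0.0366 and 0.0323). MBNL1, which drives splicing patterns of differentiated cells, stood at 15.9 to 19.1 TPM in DMSO and 21.2 to 41.99 TPM in CR31B. Of 15 genes of nonsense-mediated decay, 14 had estimates above 0, as did 54.1% of all tested genes. The list's median was 0.20, and 2 rose: SMG9 by 0.81 and SMG6 by 0.67 (limma adjusted p of 0.00900 and 0.0371). Of these 12 calls, SRPK2 and SMG9 held in all 15 alternatives and BCLAF1 in 13. The other 9 kept their direction but were each lost on leaving out any of several single libraries: SNRPN held in 10 alternatives, LUC7L2, QKI and SNRPB in 9, MBNL1, SNRPD2 and SNRPG in 8 of 15, SF3A3 in 7 of 15 and SMG6 in 7 of 14. Each of these tallies includes the alternative that adds pseudogene rows to members, which leaves the list genes as in the main fit. Without DMSO replicate 4 none of the 4 Sm core genes passed, with adjusted p by limma from 0.0874 to 0.136. Over the 8 lists together 6 rows rose and 6 fell of 109 tested, or 11.01% against 7.46% of all tested genes. With replicate numbers as a block, 20 of these rows passed, against 12 without it, while the count of members stayed at 3 and all tested genes went to 12.3%.

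**Figure D5:**
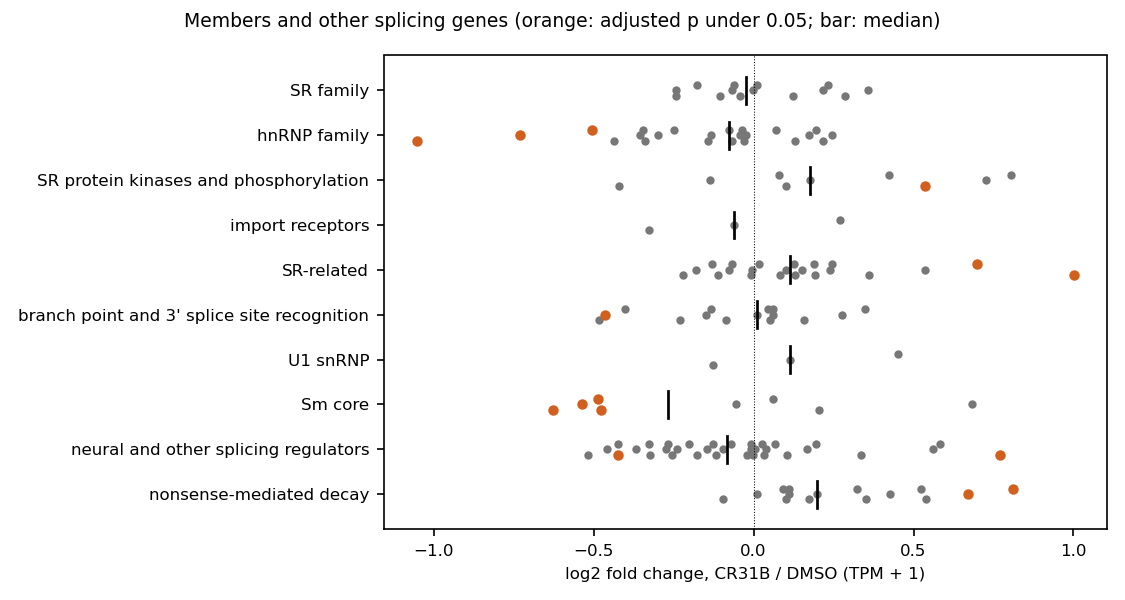
Log2 fold change (CR31B over DMSO, on log2(TPM + 1)) of every tested gene of both families and of the 8 lists of related splicing genes, with the list's median as a black bar. Genes with adjusted p under 0.05 are orange. To the left lie 3 hnRNP genes, 4 Sm core genes, SF3A3 and QKI. To the right lie 6 genes of the lists, and no SR gene is orange.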

How the data were processed

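Ribosome-protected fragments of 8 IMR32 libraries were sequenced, and the authors deposited 1 table of TPM with Ensembl gene IDs. The submitters' processing notes name cutadapt 3.2, Bowtie2 2.3.4.1, STAR 2.7.1a, RSEM 1.2.28 and DESeq2 1.32.0 and the build hg38/GRCh38, without saying what each was used for. The annotation, the strand setting and the treatment of reads with several positions are not given in the sources used here. TPM keeps no read totals, so depth is relative and the read numbers are estimates. IDs were paired with symbols for 60481 of 60651 genes.

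Values were analysed as log2(TPM + 1), which understates changes of low genes. The 11778 genes averaging 1 TPM or more were fitted with limma 3.58.1 (lmFit, eBayes with trend) in R 4.3.3, on treatment alone, and p-values were adjusted over this whole set. On 5 simulated tables of this comparison, averaging 11634 genes, 77.0% of 2-fold and 96.9% of 4-fold changes were recovered and 4.59% of calls were false. Single ratios were compared by exact permutation of libraries, two-sided (SciPy 1.17.1). Values of every library were given for the called members, the 3 most abundant of each family, SRSF1, HNRNPA1, PTBP1 and PTBP2, and others were added after their values were seen. The members, lists and rules were chosen with earlier results of these data known. Alternatives were another pseudocount, 2 other filters, 2 other scalings, the replicate number as a block and leaving out each library. Adding pseudogene rows to members, and running the alternatives on pairs of members and on genes of the lists, was chosen after seeing the data. For list genes, HNRNPCP2 and members with few pseudogene reads, such as HNRNPD and HNRNPAB, that addition all but repeats the main fit.

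With group means removed, libraries that share a replicate number correlated across genes at 0.333, 0.324, 0.301 and 0.105, so the numbers were treated as pairs in the block fit. Libraries with unlike numbers correlated at -0.206 to 0.134. CR31B replicate 4 correlated more with DMSO replicate 1 (0.134) than with DMSO replicate 4 (0.105), so its pairing is uncertain. What the numbers mark is not in the labels, and p-values measure only the spread between these libraries.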

Additional observations from a re-analysis of the deposited data

Results flagged for a closer look

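Each member and each family sum was examined in both groups for a library whose gap to its nearest neighbour took up most of the group's range. This was so in 2 of 78 groups, against 3.9 by chance at 1 in 20. SRSF10 stood at 162.86 TPM in CR31B replicate 1 and at 133 to 135 TPM in the other CR31B libraries. Without that library its log2 fold change was -0.06 in place of 0.012, and neither passed. SRSF12 stood at 1.71 TPM in CR31B replicate 2 and at 2.67 to 2.79 TPM in the others. Without that library its log2 fold change was 0.24 in place of 0.12, which did not pass (limma adjusted p of 0.377).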

How the results depend on the processing

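HNRNPD and HNRNPC passed in all 15 alternatives and HNRNPAB in 6. No SR gene passed and no hnRNP gene was called higher in any of them. With the replicate block, 1453 genes passed (680 higher, 773 lower) in place of 879 (406 and 473), and the calls of members were the same. With no filter on low values 442 passed (181 and 261). Rescaling over protein-coding genes gave 546 higher and 518 lower, which turned the balance, and median-of-ratios scaling 488 and 653. Leaving out 1 library gave 404 to 785 genes, 197 to 395 higher and 207 to 487 lower, the fewest without DMSO replicate 4. The total fell more than 1.5 times below 879 without DMSO replicates 1, 2 or 4 or CR31B replicate 4. Members near 0 changed sign: SRSF10 was -0.0083 after median-of-ratios scaling, and TRA2B, HNRNPH2 and HNRNPU were 0.033, 0.010 and 0.0041 after rescaling over protein-coding genes. Leaving out 1 library moved log2 fold changes from -0.14 to 0.011 for SRSF1, -0.19 to 0.032 for SRSF2, -0.11 to 0.036 for SRSF6, -0.060 to 0.069 for SRSF10, -0.087 to 0.053 for TRA2B, -0.14 to 0.080 for HNRNPA3, -0.10 to 0.086 for HNRNPH2, -0.15 to 0.052 for HNRNPU, -0.094 to 0.047 for HNRNPUL1, -0.036 to 0.32 for HNRNPUL2 and -0.050 to 0.15 for PTBP1. The causes were not tested. SRSF8, SRSF12 and HNRNPUL2 were not tested at a mean of at least 10 TPM. The SR median ran from -0.086 to 0.034 and the hnRNP median from -0.16 to -0.042.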
